A study of Mus musculus with 18 samples.

Results

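Complement is represented here by 9 genes, which were followed across 3 epithelial populations of the mouse mammary gland, the basal cells, the luminal progenitors (LP) and the mature luminal (ML) cells. They are the protease genes C1ra and C1s1, the components C4b, C2, Cfb and C3, and the regulators Serping1, Cd55 and Cd59a. They were taken by symbol from the 27179 genes of the count table, and all 9 passed the filter on low counts that left 16466 genes for testing. The set was chosen by the measured fall of C4b in basal knockout cells. The knockout against wildtype values of these 9 genes in basal cells are therefore given as a description with no test.

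RNA was sequenced from cells sorted from 3 knockout (KO) and 3 wildtype (WT) female mice, 14 weeks old, and each mouse gave 1 library of each population, 18 in all. KO mice carried MMTV-cre(T/+) with Brca2(delta/delta) and with Trp53(delta/+), and the other mice were wildtype controls. In KO mice the Cre recombinase is driven by the MMTV promoter, which is active in mammary epithelium. By the genotype entry, KO cells lack Brca2 and carry 1 deleted Trp53 allele where Cre acted. The strain entry, MMTVcre Brca2(fl/fl) Trp53(fl/+), is the same for every library, WT included, so it does not say whether the WT mice carried floxed alleles or Cre. The KO samples are called knockdown in their titles and Brca2KO in the genotype entry, which was followed. The groups are basal KO and basal WT, LP KO and LP WT, and ML KO and ML WT, with 3 mice each.

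Complement is a cascade of plasma and tissue proteins that tags surfaces and can open pores in membranes. In the classical pathway the proteases C1r and C1s cleave C4 and C2, in the alternative pathway factor B is the protease subunit, and both routes meet at C3. Serping1 (C1 inhibitor) blocks C1r and C1s, Cd55 (decay-accelerating factor) breaks up the enzymes that cleave C3, and Cd59a stops the pore from forming. Liver makes most circulating complement, and epithelia and stromal cells also make components locally.

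The positions on GRCm38 (mm10) were chr17:34728139-34743902 for C4b, chr17:34862602-34882100 for C2, chr17:34856374-34862514 for Cfb and chr17:57203967-57228136 for C3. C1ra was at chr6:124512621-124523440 and C1s1 at chr6:124530344-124542392. Serping1 was at chr2:84765360-84775444, Cd59a at chr2:104095753-104115410 and Cd55 at chr1:130429798-130465009. C2, Cfb and C4b lie together in the major histocompatibility region, with 88 bases between C2 and Cfb. Cfb is 2 bases from Nelfe, and Cd55 overlaps the antisense RNA gene Cd55os. The library kit does not mark strand, so reads of such neighbours cannot be told apart where they overlap.

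C3 had the largest KO difference of the 9 genes, and C1ra and C1s1 were the pair of members with the highest correlation, so the promoters of these 3 genes are shown. Each is the RefSeq window of 300 bases on GRCm38.p6, from 250 bases before the annotated start, which is base 251, to its end on the gene's own strand. Capitals mark motif matches on either strand. The C3 window is chr17:57228087-57228386 on the minus strand, the C1ra window chr6:124512371-124512670 on the plus strand, and the C1s1 window chr6:124542310-124542609 on the minus strand.
C3: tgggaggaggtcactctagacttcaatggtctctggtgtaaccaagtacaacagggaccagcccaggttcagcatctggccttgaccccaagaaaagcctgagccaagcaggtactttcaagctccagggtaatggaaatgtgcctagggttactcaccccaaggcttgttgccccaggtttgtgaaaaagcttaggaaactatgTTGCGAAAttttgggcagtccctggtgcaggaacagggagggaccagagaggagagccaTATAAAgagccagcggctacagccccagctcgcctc
C1ra: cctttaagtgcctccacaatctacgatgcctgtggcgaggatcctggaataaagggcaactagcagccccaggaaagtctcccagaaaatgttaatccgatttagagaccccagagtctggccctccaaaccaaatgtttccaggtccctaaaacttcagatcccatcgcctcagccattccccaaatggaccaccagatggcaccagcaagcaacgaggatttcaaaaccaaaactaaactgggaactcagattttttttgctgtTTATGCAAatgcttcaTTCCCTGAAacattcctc
C1s1: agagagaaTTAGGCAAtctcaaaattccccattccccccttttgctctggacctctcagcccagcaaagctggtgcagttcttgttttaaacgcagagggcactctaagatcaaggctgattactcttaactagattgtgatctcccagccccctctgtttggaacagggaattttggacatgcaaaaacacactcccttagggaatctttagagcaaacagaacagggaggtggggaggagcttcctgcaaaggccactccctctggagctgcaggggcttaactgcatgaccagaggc
The motifs searched were the ISRE core (GAAA and GAAA with NN between them), the interferon-gamma activated site (GAS) TTCNNNGAA, the C/EBP core TTGCNNAA, the TATA box TATAAA and the NF-kB consensus. The C/EBP core was in all 3 windows, and it is in 10.8% of 32851 mouse promoter windows of this length. It lay at bases -45 to -38 from the start in C3, 16 to 23 in C1ra and -242 to -235 in C1s1. C3 also held the TATA box at 14 to 19 (13.6% of windows hold one), and C1ra the GAS at 32 to 40 (8.3% of windows). None of these matches overlapped another. A second C1s1 window that starts at another annotated start held no match, the Cd55 window held none, and the Cd59a window held the ISRE core at -187 to -178 (3.44% of windows). The NF-kB consensus, in 8.46% of windows, matched in none of these 6 windows. A match is a run of letters and says nothing of binding.

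Levels are in CPM, counts scaled to a common library size. Total counts were 5.97 to 39.19 M a library, and depth differed by genotype in LP, with 22.42 to 32.72 M in LP KO and 9.29 to 16.17 M in LP WT. Trp53 was lower in KO libraries of each population, with no overlap, for example 7.25 to 9.05 CPM in LP KO and 67.1 to 150 CPM in LP WT. Brca2 counts over the whole gene overlapped between genotypes in each population, and they do not test a deletion of part of the gene. Each population had the highest mean sum of its own markers, but KO libraries differed from WT ones. In basal KO the 6 basal markers summed to 11600 to 14000 CPM, against 14800 to 17300 CPM in basal WT. The 4 LP markers summed to 27.4 to 59.3 CPM in basal KO and 21.8 to 25.1 CPM in basal WT. The ML marker sums of the basal genotypes overlapped. In ML KO the 6 basal markers summed to 461 to 529 CPM, against 13.2 to 15.3 CPM in ML WT. The 4 LP markers summed to 258 to 639 CPM in ML KO and 51.6 to 68.3 CPM in ML WT, and the 4 ML markers to 653 to 3160 CPM in ML KO and 5520 to 6610 CPM in ML WT. In LP KO the ML markers summed to 68.8 to 254 CPM, against 490 to 690 CPM in LP WT, so the ML KO library with the lowest ML marker sum was below the highest LP WT library. In these bulk samples fewer cells of a type and less RNA per cell cannot be told apart.

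C3, on which all pathways converge, was the most abundant of the 9 genes per kilobase in every group but ML WT. Its mean level was 245 ± 55.1 RPKM (CPM divided by gene length in kilobases; SD, n = 3) in LP KO and 360 ± 241 RPKM in LP WT. In ML WT Cd55 led at 14.3 RPKM and C3 had 5.05 RPKM. In basal KO cells C1s1 came after C3, at 53.5 RPKM, ahead of C4b at 23.4 RPKM. In basal WT cells C4b was next after C3, at 88.8 ± 9.11 RPKM, ahead of C1s1 at 65.9 RPKM.

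**Figure D1:**
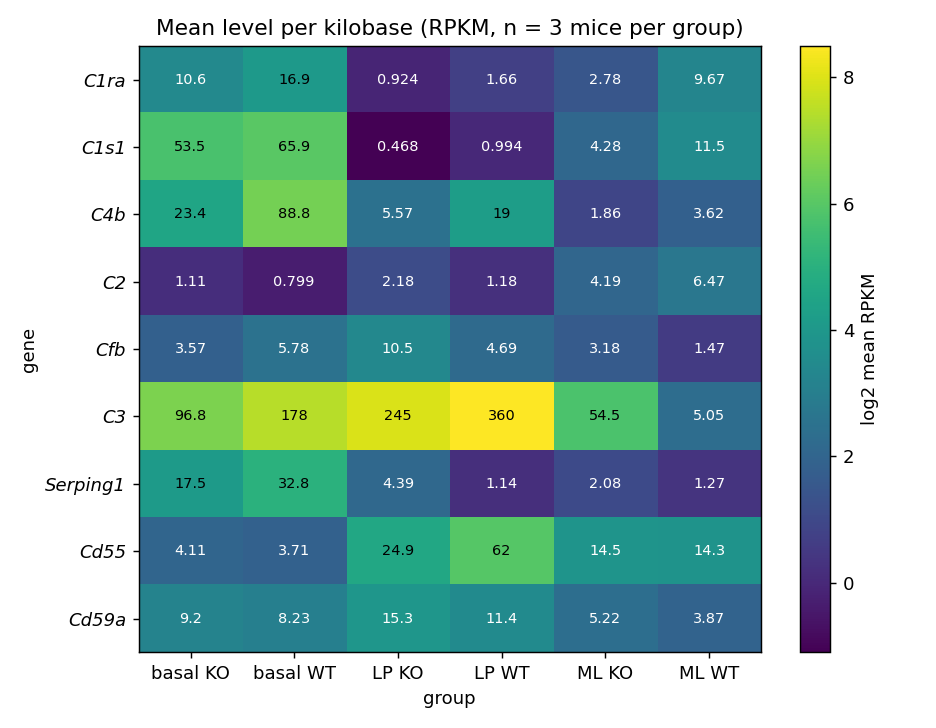
Mean level per kilobase (RPKM) of the 9 complement genes (rows) in the 6 groups (columns), 3 mice each, with colour on a log2 scale and the mean printed in each cell. C3 led in each group except ML WT, where Cd55 led at 14.3 RPKM.

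In WT mice the highest mean stood in basal cells for C1ra, C1s1, C4b, Cfb and Serping1, in LP for C3, Cd55 and Cd59a, and in ML for C2. The top mean did not differ past the threshold from the next one for C1ra (basal and ML), Cfb (basal and LP), C3 and Cd59a (LP and basal). Between WT LP and WT ML, 5 of the 9 members were higher and 3 lower in LP by edgeR's quasi-likelihood test (adjusted p under 0.05), where 33.7% of all tested genes passed, 17.6% higher and 16.1% lower. The median log2 fold change of the members was 1.6, and that of all tested genes 0.01. Of the 8 members other than C4b, 1 was higher and 3 were lower in WT LP than in WT basal cells, where 37.1% of all genes passed, 17.3% higher and 19.8% lower. Of the same 8, 2 were higher and 4 lower in WT ML than in WT basal cells, where 54.5% of all genes passed, 25.7% higher and 28.9% lower. These 3 comparisons share their WT libraries.

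**Figure D2:**
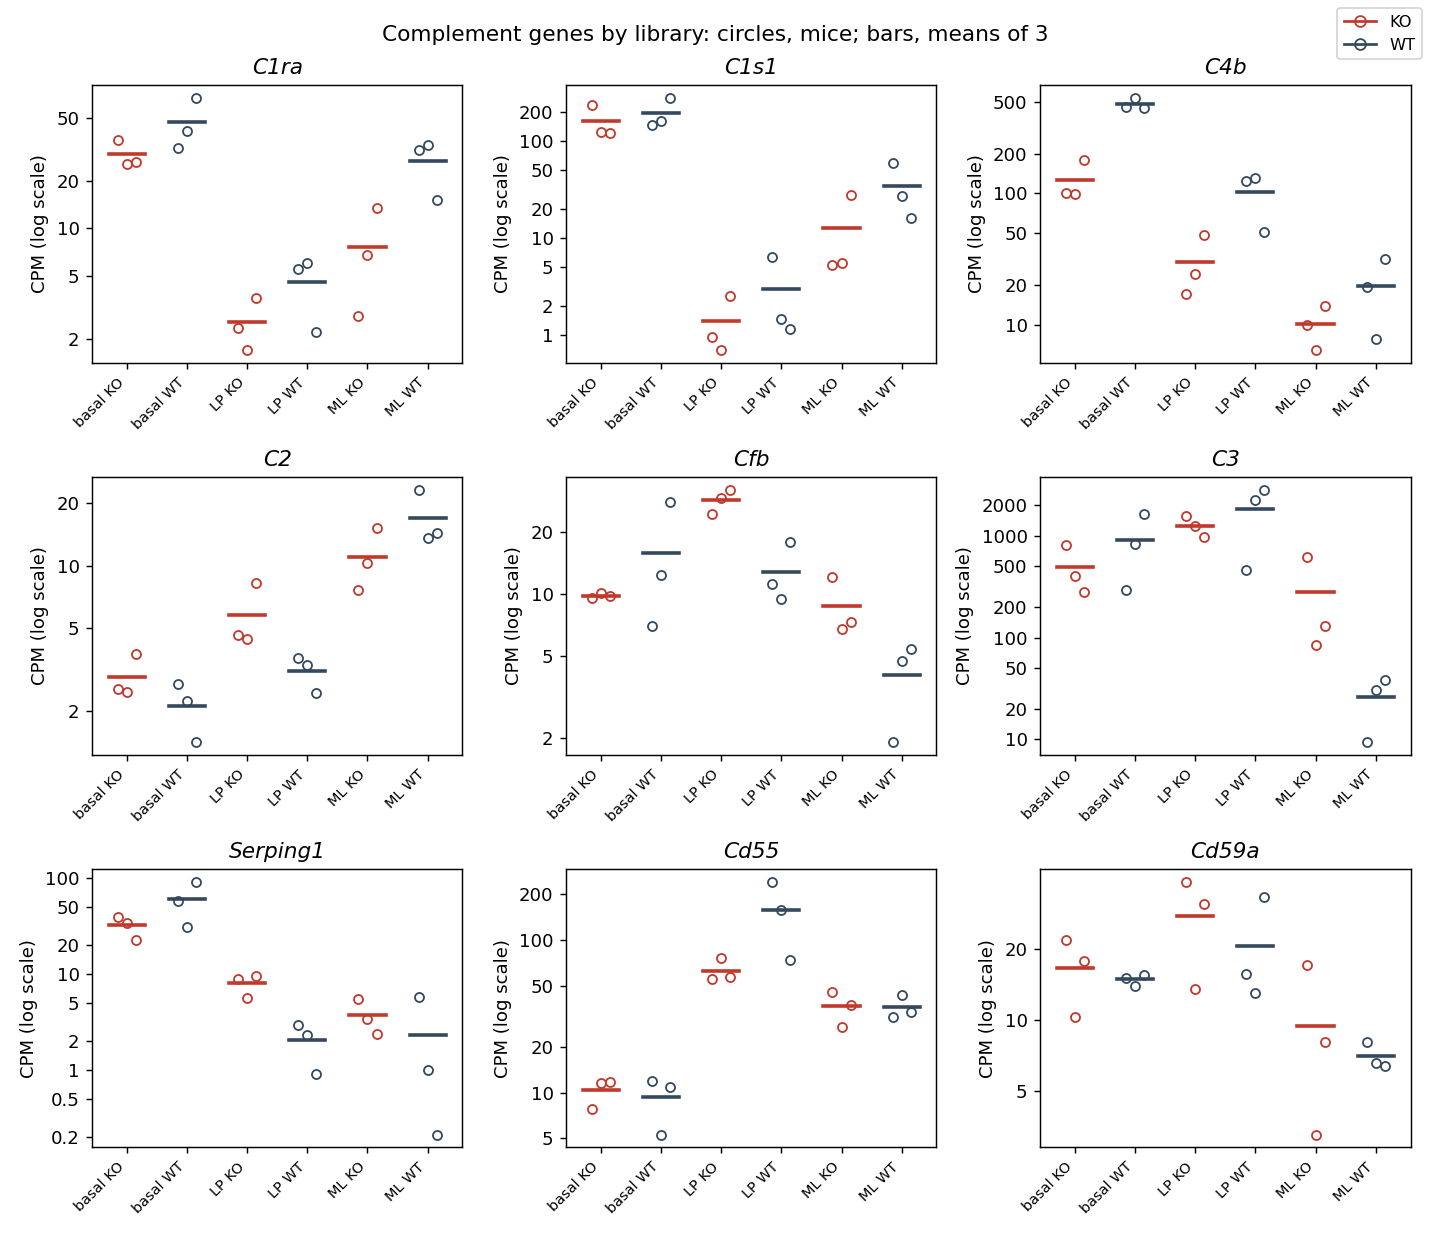
CPM of each complement gene (log axis) in every library, with KO in red and WT in blue-grey; circles are mice and bars the mean of 3. C4b lay at 99.7 to 178 CPM in basal KO, below the 449 to 536 CPM of basal WT, and C3 lay at 84.0 to 625 CPM in ML KO, above the 9.34 to 38.2 CPM of ML WT.

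C1ra encodes the mouse C1r protease that starts the classical cascade. It had 36.1, 25.6 and 26.2 CPM in the basal KO libraries and 32.2, 41.0 and 66.9 CPM in basal WT. It had 2.33, 1.70 and 3.62 CPM in LP KO, against 5.55, 6 and 2.21 CPM in LP WT. In ML KO it had 2.78, 6.79 and 13.4 CPM, against 31.4, 33.8 and 15 CPM in ML WT. All 3 ML KO libraries were below all 3 ML WT ones, while the genotypes overlapped in basal and LP. C1ra fell in ML KO by 1.73 on the log2 scale (SE 0.46, edgeR adjusted p = 0.013), and its log2 difference in LP of -0.79 (SE 0.52, adjusted p = 0.33) did not pass. The ML call was past the threshold in 11 of 15 alternatives and was lost without ML KO replicate 1 (-1.39, adjusted p = 0.062), ML KO replicate 2 (-1.62, adjusted p = 0.054) or ML WT replicate 2 (-1.51, adjusted p = 0.067). The LP difference minus the ML difference was 0.95 (SE 0.69, edgeR adjusted p = 0.45). In WT mice C1ra averaged 4.59 CPM in LP, 26.7 CPM in ML and 46.7 CPM in basal cells. LP was lower than ML by a log2 difference of -2.59 (edgeR adjusted p = 0.00054) and lower than basal by -3.40 (edgeR adjusted p = 2.1e-05). The difference of -0.81 between ML and basal cells (adjusted p = 0.12) did not pass, except in limma voom with the mouse as a random replicate block (adjusted p = 0.039). The ML marker sums of ML KO replicates 1 to 3, at 653, 2570 and 3160 CPM, had the same order as their C1ra levels. The part of the marker difference in the C1ra fall was not tested.

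C1s1, which encodes the C1s protease that C1r activates, was highest in basal cells and lowest in LP. It averaged 2.97 ± 2.88 CPM in WT LP, 34.3 ± 22.7 CPM in WT ML and 197 ± 72.9 CPM in WT basal cells (SD, n = 3 each). WT LP was 71.9-fold lower than WT basal (log2 -6.17, SE 0.85, edgeR adjusted p = 2.3e-05), and WT ML was 5.85-fold lower than WT basal (edgeR adjusted p = 0.0048). Between genotypes its libraries overlapped in every population. They ran from 120 to 236 CPM in basal KO and 147 to 280 CPM in basal WT. They ran from 5.26 to 27.6 CPM in ML KO and 16 to 59.7 CPM in ML WT, a log2 difference of -1.37 (SE 0.67, edgeR adjusted p = 0.19). Without ML KO replicate 3 that difference was -2.63, with an edgeR adjusted p of 0.014. In LP the log2 difference was -0.96 (SE 0.88, adjusted p = 0.49) at 0.697 to 2.54 CPM in LP KO and 1.16 to 6.29 CPM in LP WT.

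C1ra and C1s1 followed the same order of populations, and their log2 CPM had a Pearson correlation of 0.949 over the 18 libraries, which share 6 mice and 3 populations. Both have a duplicated copy beside them whose reads may be split between the copies. C1rb held 5.98% to 26.0% of the C1ra plus C1rb counts of a library. C1s2 held 45.4% to 54.5% of the C1s1 plus C1s2 counts in LP KO, against 5% to 7.14% in LP WT, and 0.975% to 13.1% in the other groups. C1s2 itself averaged 1.33 CPM (119 counts) in LP KO and 0.181 CPM (5 counts) in LP WT, a log2 difference of 3.08 (SE 1.04, edgeR adjusted p = 0.049). That call was lost in 11 of 15 alternatives, including the fits without LP KO replicate 1 (3.21, adjusted p = 0.062), LP KO replicate 3 (2.57, 0.18), LP WT replicate 1 (3.97, 0.078), LP WT replicate 2 (2.95, 0.16) or LP WT replicate 3 (2.49, 0.19).

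C4b encodes C4, whose cleavage fragment forms the C3-cleaving enzyme with C2. It had 101, 99.7 and 178 CPM in basal KO and 452, 536 and 449 CPM in basal WT. This is the difference by which the set was chosen, with a log2 fold change of -1.92 (SE 0.46). C4b was the 1 member of 9 with no overlap of genotypes in basal cells, where 17.6% of all tested genes did not overlap, 6.82% with KO lower. Basal log2 differences of the other 8 ran from -0.89 (SE 0.52) for Serping1 to 0.39 (SE 0.40) for C2, each with overlapping libraries. In LP, whose libraries come from the same mice but did not choose the gene, C4b had 17.2, 24.4 and 48.6 CPM in KO, against 125, 132 and 50.8 CPM in WT. The KO libraries were all lower, although LP KO replicate 3 and LP WT replicate 3 came close to each other. C4b fell in LP KO by 1.76 on the log2 scale (SE 0.46, edgeR adjusted p = 0.017), a 3.4-fold difference. The LP call was past the threshold in 10 of 15 alternatives. It was lost without LP KO replicate 1 (-1.49, adjusted p = 0.067), LP KO replicate 2 (-1.63, adjusted p = 0.052), LP WT replicate 1 (-1.59, adjusted p = 0.055) or LP WT replicate 2 (-1.54, adjusted p = 0.077).

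In ML, C4b had 9.92, 6.40 and 13.8 CPM in KO and 19.3, 7.84 and 31.5 CPM in WT. The genotypes overlapped there, with a log2 difference of -0.98 (SE 0.48, edgeR adjusted p = 0.18). The LP difference minus the ML difference was -0.78 (SE 0.66, adjusted p = 0.53), so no difference between the luminal populations was shown. Among WT mice C4b averaged 102 CPM in LP, 19.5 CPM in ML and 479 CPM in basal cells. LP exceeded ML by 2.37 on the log2 scale (SE 0.48, edgeR adjusted p = 0.00092). The lower levels relative to basal cells, log2 -2.23 in WT LP and -4.60 in WT ML, are given with no test because the basal WT libraries are part of the choice of C4b.

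C4a, the near-identical neighbour gene of C4b, held 5.59% to 32.4% of the C4b plus C4a counts of a library. It averaged 11.8 ± 2.64 CPM in basal KO and 33.6 ± 8.69 CPM in basal WT (SD, n = 3 each), a log2 difference of -1.52. In LP it averaged 5.17 CPM in KO and 8.47 CPM in WT (log2 -0.69, SE 0.33, edgeR adjusted p = 0.16). In ML it averaged 3.23 CPM in KO and 2.51 CPM in WT (adjusted p = 0.68). Reads that fit both copies may have been assigned to either, so the values of the copies are not independent.

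C2, the protease subunit that pairs with C4, was the member with its highest WT level in ML. It averaged 3.12 ± 0.593 CPM in WT LP, 17.1 ± 5.37 CPM in WT ML and 2.11 ± 0.652 CPM in WT basal cells (SD, n = 3 each). WT LP was lower than WT ML (log2 -2.46, edgeR adjusted p = 7.2e-05), and WT ML was 7.7-fold higher than WT basal (edgeR adjusted p = 2.6e-06). In LP all KO libraries, at 4.63, 4.43 and 8.27 CPM, were above the WT ones, at 3.58, 3.34 and 2.45 CPM. The LP difference of 0.92 (SE 0.39, edgeR adjusted p = 0.11) did not pass the threshold. In ML the ranges overlapped, with 7.64 to 15.3 CPM in KO and 13.6 to 23.3 CPM in WT (log2 -0.58, adjusted p = 0.26). The LP difference minus the ML difference was 1.5 (SE 0.51, edgeR adjusted p = 0.09), and it passed with the mouse as a replicate block (adjusted p = 0.016).

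Cfb encodes factor B, the counterpart of C2 in the alternative pathway. It had 24.5, 29.4 and 32.3 CPM in LP KO, all above the 11.2, 9.45 and 18 CPM of LP WT. It had 12.1, 6.74 and 7.36 CPM in ML KO, again all above the 1.90, 4.75 and 5.43 CPM of ML WT. Neither difference passed: log2 1.14 in LP (SE 0.40, edgeR adjusted p = 0.061) and 0.98 in ML (SE 0.44, adjusted p = 0.14). The LP difference passed in 4 of 15 alternatives, among them DESeq2 (adjusted p = 0.047) and the fit without LP WT replicate 3 (1.5, adjusted p = 0.036). Another was the replicate number as a block (adjusted p = 0.03), although replicate numbers do not pair KO with WT mice. In basal cells it had 9.57 to 10.1 CPM in KO, inside the 7.02 to 28.3 CPM of WT. In WT mice Cfb averaged 12.9 CPM in LP and 4.03 CPM in ML, a log2 difference of 1.6 (edgeR adjusted p = 0.0089) that was lost without LP WT replicate 3 (1.28, adjusted p = 0.052). WT ML was lower than WT basal, at 15.9 CPM, by -1.85 on the log2 scale (edgeR adjusted p = 0.0014).

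C3 had 625, 84.0 and 131 CPM in ML KO, against 9.34, 30.2 and 38.2 CPM in ML WT. All KO libraries were above all WT ones, and ML KO replicate 1 stood well above the other ML KO libraries. C3 rose 10.5-fold in ML KO (log2 3.40, SE 0.85, edgeR adjusted p = 0.012). The call was lost without ML KO replicate 1 (2.02, adjusted p = 0.095) and without ML WT replicate 1 (3.03, adjusted p = 0.055), and was past the threshold in 13 of 15 alternatives. ML KO replicate 1 was also the ML library with the highest LP marker sum, 639 CPM, and the lowest ML marker sum, 653 CPM. In WT mice C3 was itself 69.7-fold higher in LP than in ML, and the part of the marker difference in the C3 difference was not tested.

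**Figure D3:**
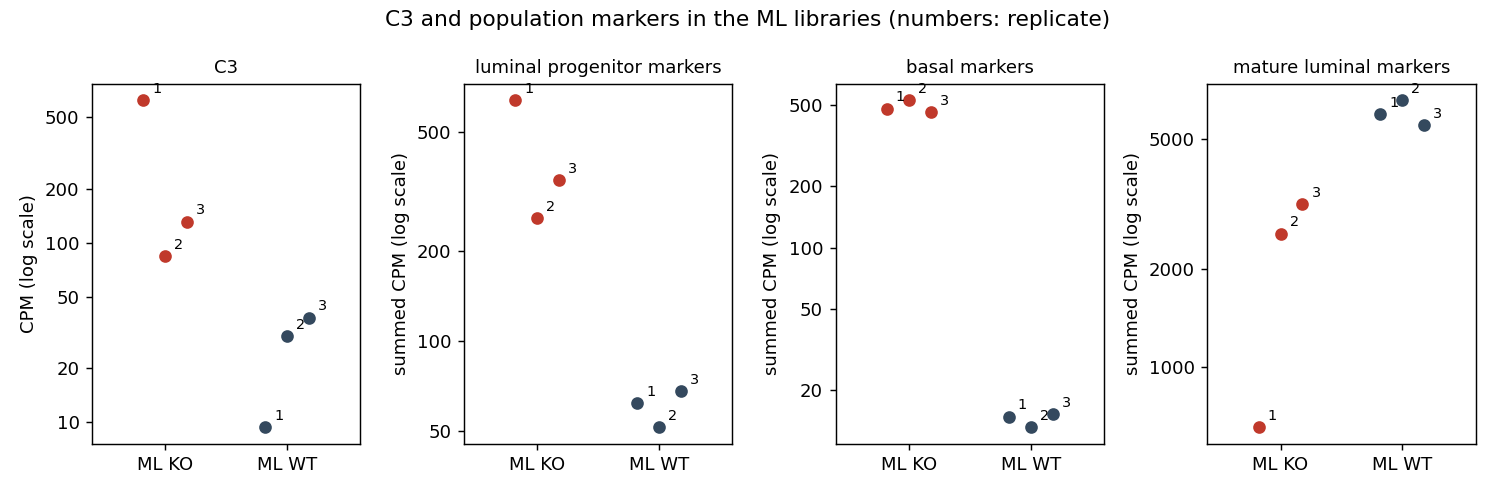
C3 (CPM) and the summed CPM of LP, basal and ML marker genes in the ML libraries, KO left and WT right, on log axes, with points numbered by replicate. ML KO replicate 1 had the most C3 (625 CPM), the highest LP marker sum (639 CPM) and the lowest ML marker sum (653 CPM).

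In LP, C3 had 1550, 1250 and 980 CPM in KO and 457, 2250 and 2830 CPM in WT, so the WT libraries lay on both sides of the KO ones (log2 -0.56, SE 0.77, edgeR adjusted p = 0.67). In basal cells it had 809, 401 and 280 CPM in KO and 293, 830 and 1620 CPM in WT. Replicate 1 had the most C3 of the KO libraries in each population, and these 3 libraries come from 1 mouse. Among the WT libraries replicate 1, also 1 mouse, had the least C3 in each population. The LP difference minus the ML difference was -3.95 (SE 1.14, edgeR adjusted p = 0.049), the 1 member past the threshold, where 6.37% of all genes passed, 1.22% with a higher and 5.15% with a lower difference in LP. It was lost in 12 of 21 alternatives, including 9 of the 12 fits that left out a library. With the mouse as a fixed or a random replicate block it stayed past the threshold. Without ML KO replicate 1 it was -2.58 (adjusted p = 0.16). In WT mice C3 averaged 1850 CPM in LP, 25.9 CPM in ML and 916 CPM in basal cells. LP exceeded ML by 6.12 on the log2 scale (SE 0.96, edgeR adjusted p = 0.00014) and ML was below basal by -5.11 (SE 0.92, edgeR adjusted p = 0.00021). The difference of 1.01 between LP and basal (adjusted p = 0.33) passed with the mouse as a replicate block (adjusted p = 0.029).

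Serping1 encodes C1 inhibitor, a secreted serpin. It had 39.2, 34.2 and 22.3 CPM in basal KO and 57.9, 30.5 and 90.6 CPM in basal WT. In LP it had 8.96, 5.58 and 9.45 CPM in KO, all above the 2.96, 2.33 and 0.919 CPM of WT. In ML it had 5.55, 3.42 and 2.37 CPM in KO and 5.70, 1.00 and 0.214 CPM in WT. The basal and ML ranges overlapped, and the LP ranges did not. Serping1 rose in LP KO by 2.05 on the log2 scale (SE 0.67, edgeR adjusted p = 0.047). This LP call was past the threshold in 4 of 15 alternatives, with adjusted p from 0.031 to 0.16. It was lost without LP KO replicate 1 (adjusted p = 0.095), LP KO replicate 3 (0.12), LP WT replicate 1 (0.065), LP WT replicate 2 (0.12) or LP WT replicate 3 (0.16), and with limma voom (0.076). In ML the log2 difference was 1.14 (SE 0.73, edgeR adjusted p = 0.32), and without ML WT replicate 1 it was 2.81 (adjusted p = 0.014). The LP difference minus the ML difference was 0.91 (SE 1.02, adjusted p = 0.66). In WT mice Serping1 was 30.9-fold lower in LP than in basal cells (edgeR adjusted p = 1.2e-05) and 36.3-fold lower in ML than in basal cells (edgeR adjusted p = 6.1e-06).

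Cd55, a membrane protein that protects the cell it sits on, had 55.2, 76.4 and 57.0 CPM in LP KO and 240, 157 and 73.6 CPM in LP WT. LP WT replicate 3 lay just under LP KO replicate 2, and the other LP WT libraries were higher than all LP KO ones. Cd55 fell in LP KO by 1.31 on the log2 scale (SE 0.35, edgeR adjusted p = 0.016). The call was past the threshold in 10 of 15 alternatives and was lost without LP WT replicate 1 (-0.87, adjusted p = 0.11), LP WT replicate 2 (-1.31, 0.051), LP KO replicate 1 (-1.23, 0.059) or LP KO replicate 3 (-1.24, 0.064). In ML it had 26.9 to 45.5 CPM in KO and 31.4 to 43.6 CPM in WT, a log2 difference of 0.01 with a 95% interval of -0.68 to 0.69. In basal cells it had 7.78 to 11.8 CPM in KO and 5.31 to 11.9 CPM in WT. The LP difference minus the ML difference was -1.32 (SE 0.49, edgeR adjusted p = 0.12). It passed without LP WT replicate 3 (-1.68, adjusted p = 0.021). In WT mice Cd55 was 16.9-fold higher in LP than in basal cells (edgeR adjusted p = 7.6e-08), 4.31-fold higher in LP than in ML (edgeR adjusted p = 0.00015) and 3.92-fold higher in ML than in basal cells (edgeR adjusted p = 0.00017). Its copy Cd55b held at most 3.9% of the summed counts of both genes in a library.

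Cd59a, a lipid-anchored inhibitor of pore assembly, was the member whose group means differed least as a ratio. They ran from 7.01 ± 0.928 CPM in ML WT to 27.7 ± 12.9 CPM in LP KO (SD, n = 3 each). The genotypes overlapped in every population, with log2 differences of 0.15 in basal cells, 0.40 in LP (SE 0.47, edgeR adjusted p = 0.61) and 0.38 in ML (SE 0.51, adjusted p = 0.67). In WT mice LP exceeded ML by 1.6 (SE 0.51, edgeR adjusted p = 0.02). That call was lost without LP WT replicate 3 (1.07, adjusted p = 0.14), ML WT replicate 2 (1.57, 0.061) or ML WT replicate 3 (1.54, 0.072), and with limma voom (adjusted p = 0.053). ML against basal, log2 -1.11 (adjusted p = 0.07), passed with the mouse as a replicate block (adjusted p = 0.0052).

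Over the whole set, 5 of the 18 luminal comparisons of a member passed. In LP KO, 1 of 9 members rose (Serping1) and 2 fell (C4b and Cd55), where 14.9% of all tested genes passed, 8.28% higher and 6.63% lower. In ML KO, 1 rose (C3) and 1 fell (C1ra), where 15.2% of all genes passed, 11.8% higher and 3.5% lower. The median log2 difference of the members was -0.56 in LP and 0.01 in ML, against 0.02 over all genes in each. Without C4b, whose basal fall chose the set, the median of the other 8 was -0.08 in LP and 0.19 in ML. Of these 8, 1 rose and 1 fell in LP KO. In LP, 3 members had all KO libraries above all WT libraries and 1 had them below, where 31% of all genes did not overlap, 17.7% with KO above and 13.4% with KO below. In ML, 2 were above and 1 below, where 37.8% of all genes did not overlap, 21.6% with KO above and 16.2% with KO below. A call in LP and none in ML, or the reverse, does not show that the populations differ: of these members the LP and ML differences differed past the threshold for C3 alone, and that call was lost in 12 of 21 alternatives.

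**Figure D4:**
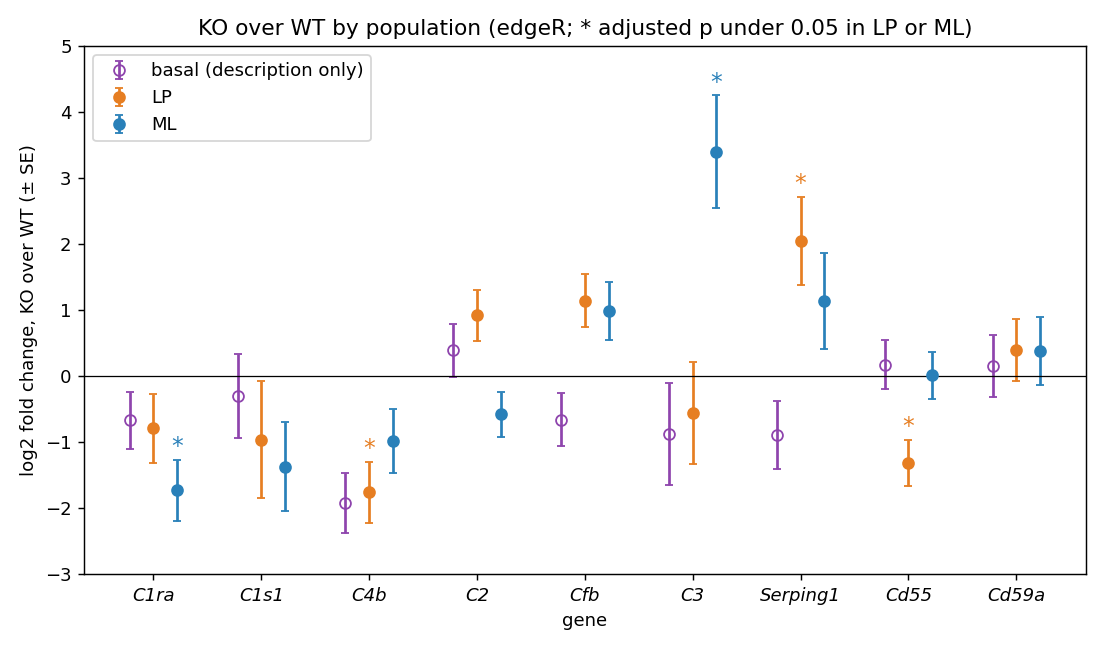
Log2 fold change of KO over WT for the 9 complement genes in basal cells (open, description only), LP and ML, with bars of 1 SE; stars mark edgeR adjusted p under 0.05 in LP or ML. Stars stand at C4b, Serping1 and Cd55 in LP and at C1ra and C3 in ML.

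Of 54 further complement genes that were listed, 29 passed the filter on low counts. In LP KO, 2 of the 29 rose and 3 fell, where 8.28% of all tested genes were higher and 6.63% lower, so the count is near the background. Their median log2 difference was 0.11, against 0.02 over all genes. Hc, the mouse gene for C5, fell to 0.429 CPM in LP KO, against 2.65 CPM in LP WT (log2 -2.45, SE 0.60, edgeR adjusted p = 0.011). Csmd1, a membrane protein with complement control domains, fell to 6.09 CPM in LP KO, against 22.6 CPM in LP WT (log2 -1.89, SE 0.48, edgeR adjusted p = 0.012). Colec11, a lectin that can start the cascade, rose to 0.550 CPM in LP KO, against 0.0616 CPM in LP WT, where it had 2 counts in all (edgeR adjusted p = 0.034). The Hc call was past the threshold in 11 of 15 alternatives. It was lost without LP WT replicate 2 (-1.95, adjusted p = 0.092) and with only the compared groups (0.067). It was also lost with limma voom, without (0.069) or with (0.057) a random mouse block. The Csmd1 call was past the threshold in 14 of 15 alternatives and was lost with only the compared groups (adjusted p = 0.067). The Colec11 call was lost without any 1 LP library but LP KO replicate 2, at adjusted p of 0.054 to 0.12. Cd55b, whose reads may be shared with Cd55, fell to 0.825 CPM in LP KO, against 3.40 CPM in LP WT (log2 -1.88, edgeR adjusted p = 0.031). Its call was lost without LP WT replicate 1 (-0.66, adjusted p = 0.5), LP WT replicate 2 (-2.09, 0.052), LP KO replicate 1 (-1.94, 0.061) or LP KO replicate 3 (-1.48, 0.13). The Cd55b call was past the threshold in 5 of 14 alternatives, and the Colec11 call in 6 of 14.

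In ML KO, 1 of the 29 listed genes rose and 3 fell, where 15.2% of all tested genes passed, 11.8% higher and 3.5% lower. The total was near the background, with the rises below and the falls above their shares. Nothing is read from so few genes. Their median log2 difference was 0.2, against 0.02 over all genes. Masp2, the protease of the lectin pathway, fell to 0.555 CPM in ML KO, against 2.31 CPM in ML WT (log2 -2.02, SE 0.45, edgeR adjusted p = 0.0036). Hc fell to 12.6 CPM in ML KO, against 32.8 CPM in ML WT (log2 -1.36, SE 0.40, edgeR adjusted p = 0.023), and C1rl, a C1r-like protease, to 3.19 CPM in ML KO, against 9.87 CPM in ML WT (log2 -1.57, adjusted p = 0.022). Hc was thus lower in KO libraries of both luminal populations, which come from the same mice. In WT mice Masp2 (0.623 and 2.31 CPM), Hc (2.65 and 32.8 CPM) and C1rl (1.13 and 9.87 CPM) were lower in LP than in ML. The part of the marker difference of the ML KO libraries in these falls was not tested. ML markers were also lower in LP KO, with sums of 68.8 to 254 CPM against 490 to 690 CPM in LP WT. Their part in the LP fall of Hc was not tested. Colec11 had no count in ML WT and was at least 3.49-fold higher in ML KO, with 3 counts over the ML WT libraries taken as the floor (edgeR adjusted p = 0.039). Fits that left out 1 library lost the Masp2 call without ML WT replicate 3 (-1.61, adjusted p = 0.067). They lost the Hc call without ML KO replicate 1 (0.095), ML KO replicate 2 (0.094), ML WT replicate 1 (0.077) or ML WT replicate 2 (0.11). They lost the C1rl call without ML KO replicate 1 (0.095), ML KO replicate 3 (0.072), ML WT replicate 2 (0.058) or ML WT replicate 3 (0.11). They lost the Colec11 call without any 1 ML library but ML KO replicate 3, at adjusted p up to 0.17. Over all alternatives the ML call of Masp2 passed in 13 of 14, of Hc and C1rl each in 10 of 15, and of Colec11 in 6 of 13. Csmd1 was the 1 listed gene whose LP and ML differences differed, by -4.05 (SE 0.88, edgeR adjusted p = 0.0065), and this held in 21 of 21 alternatives. Its ML level was 2.74 CPM in KO and 0.588 CPM in WT (log2 2.16, adjusted p = 0.059). In WT mice Csmd1 was higher in LP (22.6 CPM) and in basal cells (34.7 CPM) than in ML. The LP and basal marker sums were higher in ML KO than in ML WT. The part of this marker difference in the Csmd1 difference was not tested. In basal cells 1 of the 29, C4a, was past the threshold, lower in KO, where 3.15% of all genes passed; that comparison chose C4b, with which C4a may share reads, and nothing is read from the count.

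Between WT populations, WT LP had 5 of the 29 listed genes higher and 6 lower than WT basal, where 37.1% of all tested genes passed. WT ML had 6 higher and 12 lower than WT basal, where 54.5% of all genes passed, and WT LP had 8 higher and 5 lower than WT ML, where 33.7% of all genes passed. No enrichment of the list is read from these counts. Clu (clusterin), a secreted inhibitor of the pore, averaged 2200 CPM in WT LP, 982 CPM in WT ML and 59.6 CPM in WT basal cells. Hc averaged 2.65 CPM in WT LP, 32.8 CPM in WT ML and 0.302 CPM in WT basal cells, so with C2 it was highest in ML. Csmd1 averaged 22.6 CPM in WT LP, 0.588 CPM in WT ML and 34.7 CPM in WT basal cells. C9, which forms the pore, averaged 1.73 CPM in WT LP, with 1 count over the WT ML libraries. The genes C1s2, C4a and C1rb were lower in WT LP than in WT basal cells, as their member copies were.

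Markers of other cells that can make complement were present. The 6 fibroblast markers summed to 420 to 567 CPM in basal KO and 344 to 385 CPM in basal WT, to 12.7 to 92.3 CPM in LP KO and 31.6 to 50.5 CPM in LP WT, and to 79.6 to 373 CPM in ML KO and 48.8 to 271 CPM in ML WT. The marker sums were highest in basal cells in both genotypes, as were the means of C1ra, C1s1, C4b and Serping1. The 8 immune markers summed to 9.37 to 14.5 CPM in basal KO and 13 to 16.4 CPM in basal WT. They summed to 13.5, 9.59 and 49.4 CPM in LP KO replicates 1 to 3 and 7.54 to 13.4 CPM in LP WT, and to 3.59 to 9.89 CPM in ML KO and 3.29 to 4.09 CPM in ML WT. Of the tested immune markers 2 of 5 rose in LP KO, Csf1r and Laptm5, where 8.28% of all tested genes were higher. Laptm5 varied widely there, from 0.307 to 4.61 CPM in LP KO, against 0 to 0.247 CPM in LP WT. Cd3e was at 0 in LP WT. LP KO replicate 3, which had the highest immune sum, also had the most C4b (48.6 CPM), C2 (8.27 CPM) and C1s1 (2.54 CPM) of the LP KO libraries. The same library had the most Cfb (32.3 CPM), C1ra (3.62 CPM) and Serping1 (9.45 CPM) of them. It had the least C3 (980 CPM), and its Cd55 and Cd59a lay between those of the other LP KO libraries. None of the 6 fibroblast markers passed in any KO comparison. The part of these cells in the complement differences was not tested.

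Across the 18 libraries, among 11327 genes with a mean of at least 5 CPM, the genes whose log2 CPM was most like each member were as follows. C4b was most like C4a (Pearson 0.941), Rbm4b (0.916) and Fermt2 (0.911). C3 was most like Cp (0.944), the gene of ceruloplasmin, then Cbr2 (0.940) and Zfp512 (0.936). C1s1 was most like Fkbp10 (0.968), Prkar1b (0.966) and Lrp1 (0.964), and C1ra like Colgalt2 (0.957), Ryk (0.955) and Lamp2 (0.953). Cd55 was most like Tnk2 (0.953), Shank2 (0.943) and Gab2 (0.942), and C2 like Slc17a9 (0.953), Atp6v0e2 (0.952) and H2ac19 (0.951). Serping1 was most like Nectin3 (0.944), Gtf2f2 (0.942) and Aatk (0.933), and Cfb like Sirpa (0.910), Etfdh (0.903) and Pter (0.894). Cd59a had the lowest top value, 0.865 for Zfp821, followed by Sp140 (0.842) and Safb (0.839). Among the members themselves C3 and Cfb had a correlation of 0.859, C2 and C3 of -0.791, and Cd55 and C1s1 of -0.835. These correlations run over populations of the same 6 mice and describe this set of libraries.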

How the data were processed

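Total RNA of sorted mammary cells (miRNeasy micro kit, TruSeq RNA v2) was sequenced in 18 libraries, per the labels' protocols. Reads were summarised by the authors into counts for each gene with featureCounts and the mm10 build, per the submitters' processing notes; aligner, annotation and versions: not given in the sources used here. Single-library files and the series-wide table hold the same counts. Counts were used as deposited. Of 27179 genes, 16466 passed filterByExpr, and 25275 matched a gene symbol in RefSeq (GRCm38).

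Counts were fitted in edgeR 4.0.16 (R 4.3.3) with TMM scaling and robust quasi-likelihood dispersions, as 6 group means over all 18 libraries. Contrasts were KO over WT in each population, WT LP over WT basal, WT ML over WT basal, WT LP over WT ML, and the LP minus ML difference of the KO effect. P-values were adjusted by Benjamini-Hochberg over all tested genes, with a threshold of 0.05, and SE is the log2 fold change over the square root of F. The biological coefficient of variation was 33.3%. CPM use TMM-scaled library sizes, and RPKM the length column of the files. The fit was tested on simulated data.

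The labels give each mouse's 3 libraries the same animal number; deviations of libraries of 1 mouse from their group means had correlations of 0.0949 to 0.334 over 18 pairs, 17 of them over 0.1. Replicate numbers pair populations within a genotype, not KO with WT mice. Replicates of a group differed beyond sampling noise, with a chi-square per degree of freedom of 22.6 to 204. The members, gene lists and tests were chosen with earlier results of these data known. Genes named are the members, their listed copies, up to 4 listed genes of lowest p per contrast past the threshold, the 3 genes most like each member, and Trp53 and Brca2. Alternatives were RLE scaling, no low-count filter, only the compared groups, counts thinned to the smallest library, replicate blocks, limma 3.58.1 voom, DESeq2 1.42.0 and leaving out each library. The older edgeR quasi-dispersion was added after seeing the data.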

Additional observations from a re-analysis of the deposited data

Results flagged for a closer look

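The KO effect on C3 differed between the luminal populations only just past the threshold, and most alternatives lost this call. Its log2 fold change of KO over WT was -0.56 (SE 0.77) in LP and 3.40 (SE 0.85) in ML, and the tested difference, LP minus ML, was -3.95 (SE 1.14, edgeR adjusted p = 0.049). Over 21 alternatives the adjusted p ran from 0.00025 to 0.16, and 9 were past the threshold. Among these 9 were the fits with the mouse as a fixed or a random replicate block. The ML KO library with the most C3, replicate 1, also had the highest LP marker sum of the ML libraries, and without it the difference was -2.58 (adjusted p = 0.16). The part of these markers in the difference was not tested.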

How the results depend on the processing

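The C4b difference in basal cells, whose direction the choice of the gene fixed, ran from -2.26 to -1.78 when 1 library was left out. Members called higher in LP KO, 1 as reported, numbered 0 with RLE size factors, the older edgeR dispersion, no low-count filter, thinned counts or limma voom, and 2 with the replicate block or DESeq2; members called lower, 2 as reported, numbered 0 with only the compared groups. Leaving out 1 library gave 0 to 1 higher and 0 to 2 lower. In ML KO, members called lower, 1 as reported, numbered 0 with only the compared groups, and leaving out 1 library gave 0 to 1 higher and 0 to 2 lower. WT LP over WT basal gave 2 members higher with the mouse as replicate block, C3 being added. WT LP over WT ML gave 3 to 5 higher when 1 library was left out. For LP minus ML, members called lower, 1 as reported, numbered 0 without the filter, with only the compared groups or with limma voom, and 0 to 1 when 1 library was left out; the mouse block gave 1 higher.

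Listed genes called higher in LP KO, 2 as reported, numbered 1 with RLE or only the compared groups, 0 without the filter or with thinned counts, 4 with the older dispersion or the replicate block, and 0 to 4 when 1 library was left out. Those called lower, 3 as reported, numbered 0 with only the compared groups, 1 with limma voom with or without a random mouse block, and 1 to 4 when 1 library was left out. Listed genes called higher in ML KO, 1 as reported, numbered 3 with RLE or limma voom, 6 with the older dispersion or DESeq2, 0 without the filter or with only the compared groups, 2 with thinned counts or the random mouse block, 4 with the replicate block, and 0 to 3 when 1 library was left out. Those called lower, 3 as reported, numbered 1 with the older dispersion and 1 to 3 when 1 library was left out. In basal cells those called lower numbered 0 to 1 when 1 library was left out. WT LP over WT basal gave 3 listed genes higher with thinned counts. WT LP over WT ML gave 4 higher with only the compared groups, 13 with DESeq2 and 4 to 10 when 1 library was left out, and 3 lower with thinned counts. LP minus ML gave 1 listed gene higher with the random mouse block or DESeq2 and 0 to 1 when 1 library was left out; it gave 2 lower with the older dispersion, the mouse block or limma voom, 3 with the random mouse block, 4 with DESeq2, and 1 to 2 when 1 library was left out.

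The sign changed for small differences that passed in no setting. Cd55 in ML was -0.03 with thinned counts, -0.01 with the replicate block, -0.05 with limma voom and -0.06 with the random mouse block; Cd59a in ML was -0.10 and -0.08 with the last pair. Cfb in WT LP over WT basal was 0.06 with limma voom and 0.03 with the random block. Serping1 in WT LP over WT ML was -0.28 with thinned counts and -0.07 with DESeq2. For LP minus ML, Cfb was -0.03 with thinned counts, and Cd59a was -0.03 with RLE, 0.00 with the older dispersion, -0.10 with thinned counts and -0.05 with DESeq2. When 1 library was left out, the sign also turned for C1s1 in LP (-1.73 to 0.13), Cd55 in ML (-0.17 to 0.19), Cd59a in ML (-0.3 to 0.83), Cfb (-0.62 to 0.42) and Cd59a (-0.09 to 0.74) in WT LP over WT basal, Serping1 in WT LP over WT ML (-0.62 to 1.91) and, for LP minus ML, Cfb (-0.13 to 0.48), Cd59a (-0.43 to 0.7), C1s1 (-0.37 to 1.67) and Serping1 (-0.76 to 1.76). The cause of these changes was not tested. Depth limits what could be seen of genes under 1 CPM.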
